A study of Mus musculus with 25 samples.

Results

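The 10 genes described here are ligands, receptors and one effector enzyme of 3 signalling systems of blood vessels: *Vegfa*, *Vegfb*, *Kdr*, *Flt1*, *Apln*, *Aplnr*, *Tek*, *Angpt1*, *Angpt2* and *Nos3*. They were selected on their names, with the exercise results of these same libraries in view, *Aplnr* being known to have a very large fall, so that every exercise value of a member below is a description. Where a member is said to be called for exercise, in all mice or within a genotype or sex, this states on which side of the threshold it lay and is not a test. All 10 were found among the 52636 genes of the count table, and all 10 passed the filter on low counts. RNA of the *soleus*, a postural muscle of the lower leg with slow and fast fibers, was sequenced from 25 C57BL/6 mice aged 12 weeks, 13 males and 12 females, with 1 library per mouse. Every mouse carried *Dnmt3a* flox/flox alleles. WT mice had no Cre, and mD3AKO mice also carried mCK-Cre, a transgene in which the muscle creatine kinase promoter drives the recombinase in muscle fibers but not in the endothelial, mural or other non-muscle cells that hold most of the receptors described here. Exercised mice ran on a treadmill for 30 minutes and were killed 60 minutes after the end of the run (7 WT and 6 mD3AKO mice), and rested mice spent the same time on a sham treadmill (5 WT and 7 mD3AKO mice).

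VEGF-A is the main growth factor of endothelial cells and is released in muscle largely by the fibers, and VEGF-B is a relative that binds FLT1 but not KDR. KDR (VEGFR2) passes most of the VEGF-A signal on, whereas FLT1 (VEGFR1) binds VEGF-A tightly, signals weakly and exists also in soluble forms, so that it acts in part as a decoy. Apelin, encoded by *Apln*, acts on the G protein-coupled receptor APLNR of endothelial cells. Angiopoietin-1, made largely by mural cells, activates the receptor TIE2, encoded by *Tek*, while angiopoietin-2, stored in endothelial cells, can oppose it. NOS3 is the endothelial nitric oxide synthase, which is activated downstream of these receptors and relaxes vessels.

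The libraries held between 22671457 and 37431801 counts, and at the median of 32189360 a gene at 1 CPM, the unit used for levels, which scales counts to library size, rests on about 32.2 reads. *Dnmt3a* itself was at 93.4 CPM or more in every WT library and at 53.9 CPM or less in every mD3AKO library, so the genotype labels held. Mouse 15, a rested mD3AKO male, had the fewest counts, and 39.5% of them fell on genes of ribosomal RNA (7.76% to 13.0% in the others). The number of members called for exercise, genotype, their interaction, sex, or sex by exercise was the same with and without mouse 15. CPM below are scaled by TMM, and a fold change or a log2 fold change, with its standard error (SE), comes from edgeR's quasi-likelihood fit across 16340 genes. A gene is said to be called when its Benjamini-Hochberg adjusted p over all genes tested was under 0.05.

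On the FPKM scale, CPM divided by the exon length in kilobases, which allows genes to be compared, *Vegfb* and *Vegfa* were the most abundant members at rest, at 37.7 ± 6.98 and 31.3 ± 3.02 FPKM (SD, n = 12 mice). *Angpt1*, *Kdr* and *Tek* followed at 13.5 ± 2.64, 10.9 ± 1.55 and 10.2 ± 0.635 FPKM, and their ranges over the rested mice overlapped. *Aplnr* was at 7.22 ± 2.62 FPKM, with a range of 4.56 to 12.3 that overlapped those of these 3 genes and of *Flt1*, at 6.23 ± 0.699 FPKM, and *Nos3* was at 2.36 ± 0.344 FPKM. *Apln* and *Angpt2*, at 1.04 ± 0.499 and 0.886 ± 0.160 FPKM, were lowest. These last genes rest on 27 to 243 and 34 to 140 reads per library, a counting error of up to 19.2% for *Apln* and 17.2% for *Angpt2*, while the other members had at least 78 reads in every library.

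After exercise the receptors and the enzyme moved in different directions, as the plot of the members by mouse shows. *Aplnr* was far lower in all exercised mice, *Kdr* and *Tek* were lower, *Flt1* and *Nos3* were higher, 1.25 and 1.27 times by the fit, and *Vegfa* was 1.16 times as high, while *Vegfb*, *Apln*, *Angpt1* and *Angpt2* were not called. In counts, 3 of the 10 members were called higher, where 5.7% of all genes tested were called higher, and 3 were called lower, where 4.69% of all genes were called lower. Because the members were chosen with this contrast known, nothing is read from these shares.

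**Figure D1:**
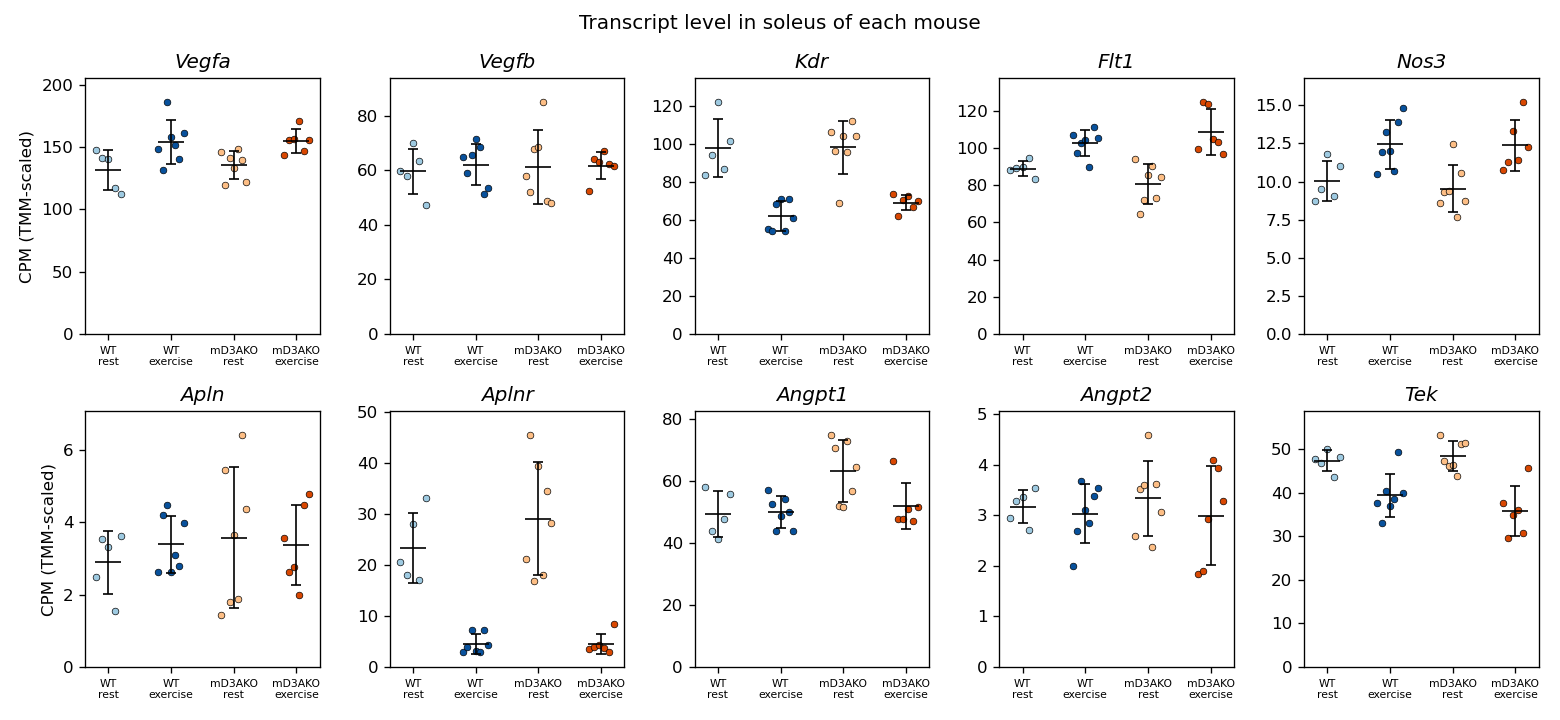
Transcript level of the 10 members in the *soleus* of each mouse, in TMM-scaled CPM on linear axes that start at 0. Each point is 1 mouse (WT rest n = 5, WT exercise n = 7, mD3AKO rest n = 7, mD3AKO exercise n = 6), and bars are the mean and SD. *Aplnr* falls from between 16.9 and 45.6 CPM at rest to between 2.91 and 8.45 CPM after exercise, with no overlap.

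*Aplnr* (mm10 chromosome 2, 85136225 to 85139923, plus strand), a gene of a single exon of 3699 bases, was at 17.1, 18.0, 20.5, 27.9 and 33.1 CPM in the 5 WT mice at rest. In the 7 WT mice after exercise it ranged from 2.91 over a median of 4.00 to 7.25 CPM. In mD3AKO mice it ranged from 16.9 (median 28.3) to 45.6 CPM at rest and from 2.92 (median 3.89) to 8.45 CPM after exercise. No exercised mouse reached the lowest rested mouse. The mean of all rested mice, 26.7 ± 9.69 CPM, was 5.90 times that of the exercised mice, 4.52 ± 1.86 CPM, and the fitted log2 fold change of -2.53 (SE 0.206) was the lowest of the 16340 genes tested. The rested mice themselves spread 36.3% around their mean (coefficient of variation), against 14.2% for *Kdr* and 6.24% for *Tek*. Its ligand gene *Apln* (chromosome X, 48025146 to 48034853, minus strand) had no such change. *Apln* was at 1.54 to 3.60 CPM in WT mice at rest and 2.61 to 4.46 CPM after exercise, and at 1.44 to 6.42 and 1.98 to 4.77 CPM in mD3AKO mice. Its fitted difference was 0.06 (SE 0.214, 95% interval -0.38 to 0.50). The ratio of the FPKM of *Apln* to that of *Aplnr* in the same library accordingly went from between 0.0796 and 0.230 at rest to between 0.454 and 1.80 after exercise.

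The VEGF receptors *Kdr* and *Flt1*, which share a chromosome and a ligand, moved in opposite directions. *Kdr* (chromosome 5, 75932827 to 75978458, minus strand) was at 84.1, 87.0, 94.2, 102 and 122 CPM in rested WT mice and between 54.3 (median 60.9) and 71.3 CPM after exercise. In mD3AKO mice it was between 69.0 (median 104) and 112 CPM at rest and between 62.2 (median 70.3) and 73.6 CPM after exercise. The low end of the rested mice was 1 mD3AKO mouse, mouse 8, and 7 of 13 exercised mice lay below all rested mice. The mean went from 98.1 ± 14.0 to 65.5 ± 7.16 CPM, and the log2 fold change was -0.58 (SE 0.0720). *Flt1* (chromosome 5, 147561604 to 147726011, minus strand) was at 83.6, 88.1, 89.3, 89.6 and 94.4 CPM in rested WT mice and between 89.6 (median 105) and 111 CPM after exercise. In mD3AKO mice it was between 64.4 (median 84.5) and 94.0 CPM at rest and between 96.8 (median 104) and 125 CPM after exercise. Thus 12 of 13 exercised mice lay above every rested mouse. The mean went from 84.1 ± 9.44 to 105 ± 9.93 CPM, with a log2 fold change of 0.32 (SE 0.0578). The counts are per gene and cannot separate the soluble from the membrane-bound forms of FLT1.

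In FPKM, the ratio of *Flt1* to *Kdr* was 0.583 ± 0.0979 in the rested mice (0.434 to 0.725, n = 12) and 1.09 ± 0.138 in the exercised mice (0.905 to 1.34, n = 13), so that the groups did not overlap. The ratio of *Vegfa* to *Kdr* went from 2.94 ± 0.586 (2.33 to 4.31) to 5.01 ± 0.582 (4.10 to 5.86), and 2 of the 13 exercised mice (4.10 and 4.17) lay below the highest rested mouse (4.31). The plot of the ratios gives these values for each mouse.

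**Figure D2:**
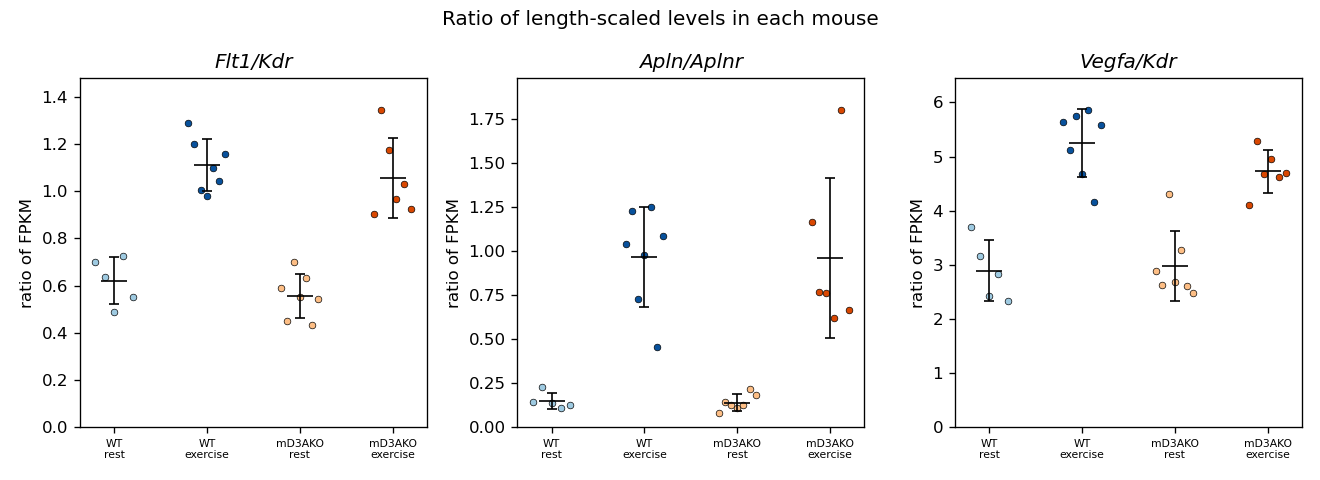
Ratio of the FPKM of 2 genes within each library, by group, on linear axes that start at 0, with each point 1 mouse and bars the mean and SD. The *Flt1* to *Kdr* ratio lies between 0.434 and 0.725 in rested and between 0.905 and 1.34 in exercised mice, and the *Apln* to *Aplnr* ratio between 0.0796 and 0.230 and between 0.454 and 1.80.

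The promoters of this pair, with that of *Tek*, which like *Kdr* was lower after exercise, are shown because they carry the start sites of receptor genes that moved in different directions in the same tissue. Each window is taken from RefSeq (GRCm38.p6, the assembly called mm10), runs 5′ to 3′ on the strand of the gene and holds 250 bases before and 50 bases from the start site on. Capitals mark the motif found in it.
Flt1, chr5:147725962-147726261, minus strand: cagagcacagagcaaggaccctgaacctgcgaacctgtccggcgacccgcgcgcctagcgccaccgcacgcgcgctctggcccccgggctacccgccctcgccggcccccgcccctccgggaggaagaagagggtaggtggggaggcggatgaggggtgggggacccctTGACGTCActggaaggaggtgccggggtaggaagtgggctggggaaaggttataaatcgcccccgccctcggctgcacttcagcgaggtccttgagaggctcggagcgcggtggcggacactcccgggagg
Kdr, chr5:75978406-75978705, minus strand: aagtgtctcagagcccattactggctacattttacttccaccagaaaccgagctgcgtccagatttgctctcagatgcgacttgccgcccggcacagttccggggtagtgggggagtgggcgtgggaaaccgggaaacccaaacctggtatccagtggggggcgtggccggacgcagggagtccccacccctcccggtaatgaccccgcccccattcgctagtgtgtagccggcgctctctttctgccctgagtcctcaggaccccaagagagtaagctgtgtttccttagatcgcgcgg
Tek, chr4:94739039-94739338, plus strand: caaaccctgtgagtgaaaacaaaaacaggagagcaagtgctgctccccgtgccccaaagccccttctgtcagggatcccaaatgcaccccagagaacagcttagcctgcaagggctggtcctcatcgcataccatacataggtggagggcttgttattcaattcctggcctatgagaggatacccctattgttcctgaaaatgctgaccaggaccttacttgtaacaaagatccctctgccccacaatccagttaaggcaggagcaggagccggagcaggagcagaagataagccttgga

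The *Flt1* window held the cyclic AMP response element TGACGTCA, which begins 81 bases before the start site and is present in 1.79% of the 32851 RefSeq windows of this length. The *Kdr* and *Tek* windows held none of the 5 motifs searched on both strands. The other 4 were ACGTG, the core of the hypoxia response element (19.6% of windows), TGTTTAC, a forkhead core (3.65%), CACGTG, the E-box, which contains the letters ACGTG and is counted there too (7.15%), and GGGTGTGG, a CACCC box of Krüppel-like factors (3.56%). Windows were found for 6 members, 7 in all since *Vegfa* had a pair, and those of *Vegfb* and *Apln* held none of the motifs. Of the *Vegfa* windows, the one at an internal start site (chr17:46025114-46025413, minus strand) held ACGTG on the strand opposite to the gene, from 211 bases before that site, and the window of the main start site held none. The 3 receptor promoters differed in CpG dinucleotides, with 29 in *Flt1*, 19 in *Kdr* and 3 in *Tek*, against a median of 7 over all windows. A match of letters is a description and not a binding site. Windows of *Aplnr*, *Angpt1*, *Angpt2* and *Nos3* were not used here.

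Of the TIE2 system, only the receptor gene was called. *Tek* (chromosome 4, 94739289 to 94874976, plus strand) was at 43.6, 46.8, 47.8, 48.2 and 50.0 CPM in rested WT mice and between 33.1 (median 38.5) and 49.2 CPM after exercise. In mD3AKO mice it was between 43.8 (median 47.1) and 53.3 CPM at rest and between 29.5 (median 35.5) and 45.7 CPM after exercise. All but 2 of the 13 exercised mice lay below every rested mouse, and the log2 fold change was -0.35 (SE 0.0625). *Angpt1* (chromosome 15, 42424727 to 42676977, minus strand) was at 49.5 ± 7.43 CPM in WT mice at rest and 50.1 ± 5.05 CPM after exercise, and at 63.4 ± 9.95 and 52.0 ± 7.29 CPM in mD3AKO mice. Its fitted difference over both genotypes was -0.13 (SE 0.0757, 95% interval -0.29 to 0.02). *Angpt2* (chromosome 8, 18690263 to 18741562, minus strand) ranged from 1.84 to 4.59 CPM over all mice, with a fitted difference of -0.11 (SE 0.130, 95% interval -0.38 to 0.15). The FPKM ratio of *Angpt1* to *Angpt2* was 16.0 ± 5.36 at rest and 16.0 ± 6.38 after exercise. *Angpt1* shares 283 exon bases with the antisense gene *Gm17473*, and *Angpt2* lies within *Mcph1* on the opposite strand without shared exon bases. Whether reads were counted by strand is not given in the sources used here.

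*Nos3* and *Vegfa* were somewhat higher after exercise. *Nos3* (chromosome 5, 24364810 to 24384474, plus strand) was at 8.74, 9.05, 9.54, 11.0 and 11.8 CPM in rested WT mice and between 10.5 (median 12.0) and 14.8 CPM after exercise. In mD3AKO mice it was between 7.69 (median 9.29) and 12.5 CPM at rest and between 10.7 (median 11.9) and 15.2 CPM after exercise. The groups overlapped, with 5 of 13 exercised mice above every rested mouse, but the median of the rested mice lay below all 13. Its log2 fold change was 0.34 (SE 0.0782). *Nos3* shares 1277 exon bases with the antisense gene *Gm15587* and 294 with *Atg9b*, which had 464 and 324 counts over all 25 libraries, against at least 110 counts of *Nos3* in each single library. The fitted exercise difference of *Gm15587*, whose shared bases are 30.9% of the exon length of *Nos3*, was 0.46 (SE 0.223, edgeR adjusted p = 0.232). *Vegfa* (chromosome 17, 46016993 to 46032369, minus strand) was at 112, 117, 140, 141 and 148 CPM in rested WT mice and between 132 (median 152) and 186 CPM after exercise. In mD3AKO mice it was between 120 (median 139) and 149 CPM at rest and between 143 (median 156) and 171 CPM after exercise. Again the groups overlapped, with 9 of 13 exercised mice above every rested mouse, and the log2 fold change was 0.21 (SE 0.0560). *Vegfb* (chromosome 19, 6982473 to 6987651, minus strand) was at 60.5 ± 11.2 CPM at rest and 61.8 ± 6.24 CPM after exercise, a fitted difference of 0.04 (SE 0.0837, 95% interval -0.14 to 0.21). Without TMM, on library totals alone, *Vegfa* and *Nos3* were no longer called, at log2 fold changes of 0.20 and 0.32. They were also not called when either sex was fitted alone, at 0.16 in females and 0.26 in males for *Vegfa* and 0.33 and 0.34 for *Nos3*, and in females alone the called members were *Aplnr* and *Kdr*, where 3.03% of all genes were called in females alone and 6.01% in males alone. The values of *Flt1* and *Tek* in females alone were 0.32 and -0.37, close to those of all mice, and the fit with 8 groups of sex, genotype and exercise gave 0.33 and -0.36 in females and 0.31 and -0.36 in males, where both were called in each sex, as were 3.5% of all genes in females and 6.41% in males. In that fit *Vegfa* was called in males (0.27) but not in females (0.17), and *Nos3* in neither sex (0.34 in both).

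The response in each genotype is given in the plot of the exercise differences. The fold change of *Aplnr* was -2.36 (SE 0.289) in WT and -2.69 (SE 0.294) in mD3AKO mice, on the log2 scale. That of *Kdr* was -0.65 and -0.50, of *Tek* -0.26 and -0.44, of *Flt1* 0.20 and 0.43, of *Nos3* 0.31 and 0.37 and of *Vegfa* 0.23 and 0.19. Within a single genotype, 2 of the 10 members were called in WT mice (*Aplnr* and *Kdr*) and 5 in mD3AKO mice (those and *Flt1*, *Tek* and *Nos3*), while *Vegfa* was called in neither, where 3.59% of all genes were called in WT and 6.02% in mD3AKO mice. The test of the difference between genotypes, which did not enter the choice of the members, called 0 of 10 members in edgeR, where 0% of the 16340 genes were called and 403 had an unadjusted p under 0.05. No member had an unadjusted p under 0.05, and DESeq2 also called 0 members. The differences closest to it were those of *Angpt1*, at -0.30 (SE 0.152, 95% interval -0.62 to 0.01), and of *Flt1*, at 0.23 (SE 0.115, 95% interval -0.01 to 0.47), both with an edgeR adjusted p of 1.00. For *Aplnr* the interval of this difference was wide, from -1.17 to 0.49.

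**Figure D3:**
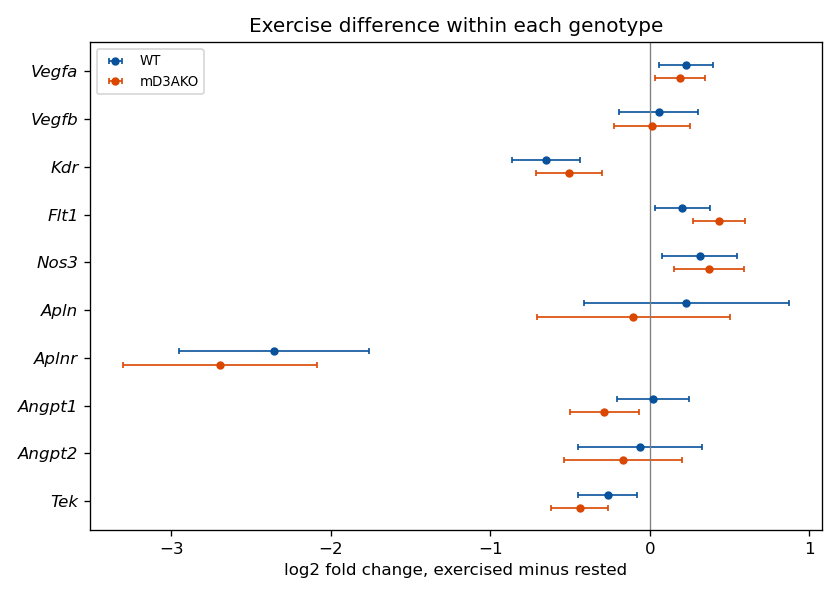
Fitted log2 fold change of each member, exercised minus rested, in WT and in mD3AKO mice, with 95% confidence intervals from edgeR's quasi-likelihood fit. *Aplnr* stands apart at -2.36 and -2.69, *Kdr* and *Tek* lie below 0 and *Flt1*, *Nos3* and *Vegfa* above 0 in both genotypes.

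No member was called between the genotypes. For the genotype main effect, mD3AKO minus WT, 0 of 10 members were called by edgeR and 0 by DESeq2, where 0.269% of all genes tested were called by edgeR, and 1 member had an unadjusted p under 0.05. This was *Angpt1*, with a difference of 0.21 (SE 0.0759, 95% interval 0.05 to 0.36) and an edgeR adjusted p of 0.545. In the rested mice alone *Angpt1* was at 41.3, 43.9, 47.9, 56.0 and 58.2 CPM in WT and between 51.7 (median 64.7) and 75.1 CPM in mD3AKO mice, a difference of 0.36 (SE 0.111, edgeR adjusted p = 0.699), and the groups overlapped. After exercise the difference was 0.06 (95% interval -0.16 to 0.27). The intervals of the other members bound the genotype difference to between -0.09 and 0.14 for *Vegfa*, -0.16 and 0.18 for *Vegfb*, -0.07 and 0.23 for *Kdr*, -0.15 and 0.09 for *Flt1*, -0.18 and 0.08 for *Tek* and -0.20 and 0.12 for *Nos3*, all log2. For the scarcer or more variable genes they were wider, -0.26 to 0.57 for *Aplnr*, -0.29 to 0.60 for *Apln* and -0.24 to 0.30 for *Angpt2*.

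Sex was tested in a fit with 8 groups of sex, genotype and exercise over 17389 genes, of which 8.15% were called. *Vegfb* was the 1 member of 10 called, and it was higher in males, by 0.27 (SE 0.0702, edgeR adjusted p = 0.0188). It was between 52.0 (median 66.9) and 85.1 CPM in the 13 males and between 47.2 (median 55.7) and 64.8 CPM in the 12 females, so the sexes overlapped. Males were mice 7 to 19, and females were mice 1 to 6 and 20 to 25. A difference between the sexes therefore cannot be told apart from one between these runs of mouse numbers. Among the females, *Vegfb* was at 52.3 to 64.8 CPM in mice 1 to 6 and 47.2 to 61.7 CPM in mice 20 to 25. The call was lost without mouse 20, at a difference of 0.23 (adjusted p = 0.090), and the number of all genes called for sex went from 1418 to 834. Mouse 20 is 1 of only 2 rested WT females, so that fit keeps 1 library in that group, which is assumed to vary like the others. Without mouse 15, which had the highest *Vegfb* level, it was 0.23 (adjusted p = 0.0260). The male minus female difference was -0.16 (SE 0.0710, edgeR adjusted p = 0.179) for *Angpt1* and 0.25 (SE 0.121, edgeR adjusted p = 0.234) for *Angpt2*, neither of them called. *Angpt2* was at 1.84 to 2.95 CPM in females 1 to 6 and 3.07 to 3.62 CPM in females 20 to 25. In the males it was at 2.38 to 4.59 CPM. The difference between the sexes in the response to exercise was called for 0 of 10 members in edgeR, where 0.046% of all genes were called (8 genes, and between 3 and 17 when 1 mouse was left out), and 0 members had an unadjusted p under 0.05. That of *Aplnr*, -2.45 (SE 0.297) in females and -2.65 (SE 0.302) in males, differed by -0.20 (95% interval -1.06 to 0.66).

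**Figure D4:**
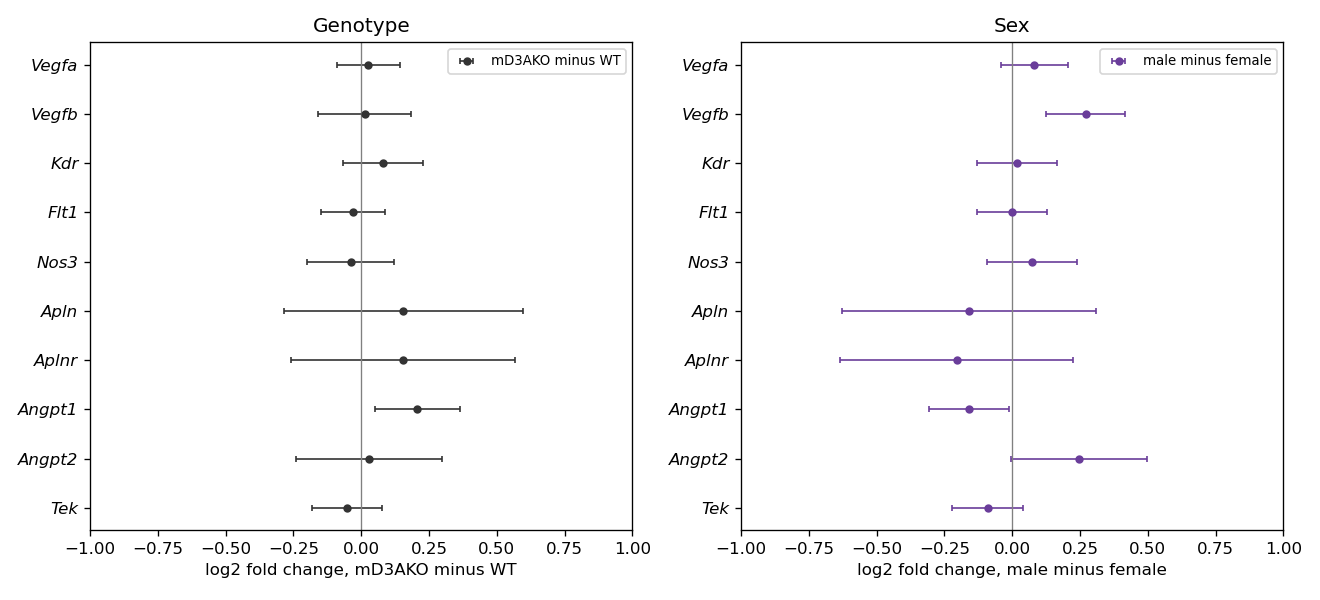
Fitted log2 fold change of each member for genotype (mD3AKO minus WT, left) and for sex (male minus female, right), with 95% confidence intervals. Apart from *Angpt1* for genotype, and *Vegfb* and *Angpt1* for sex, every interval includes 0, and only *Vegfb* for sex, at 0.27, has an adjusted p under 0.05.

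Most members are genes of endothelial cells, which are a minor part of the muscle, and in whole muscle fewer cells of a type and less RNA per cell cannot be told apart. The endothelial markers were present in every library. Of 15 endothelial markers, 5 were called lower (*Clec14a*, *Cldn5*, *Egfl7*, *Emcn* and *Cdh5*) and 2 higher (*Robo4* and *Esam*) after exercise, where 4.69% of all genes were called lower and 5.7% higher. In females alone 1 was called lower and 2 higher, and in males alone 3 were called lower and 0 higher. Of all genes, 3.03% were called in either direction in females alone and 6.01% in males alone. The summed level of the 15 was 645 ± 65.9 CPM (558 to 759) in rested and 588 ± 53.9 CPM (509 to 669) in exercised mice. *Cdh5* was not called without mouse 13 (adjusted p = 0.0576), and on library totals alone *Cdh5*, *Emcn* and *Esam* were not called (0.143, 0.0612 and 0.11). The part of this difference in the members' values was not tested. Relative to the sum of these markers in the same library, exercised over rested means were 0.185 for *Aplnr*, 0.736 for *Kdr* and 0.859 for *Tek*. They were 1.26 for *Vegfa*, 1.37 for *Flt1* and 1.40 for *Nos3*. For the members not called they were 1.12 (*Vegfb*), 1.15 (*Apln*), 0.971 (*Angpt1*) and 1.01 (*Angpt2*). The mean sum was itself lower after exercise, which raises values on this scale. On that scale *Nos3* no longer overlapped between the groups, at 13.1 to 16.6 CPM per 1000 CPM of endothelial markers in rested and 18.4 to 25.0 in exercised mice. *Flt1*, at 95.7 to 169 and 145 to 211, and *Tek*, at 61.7 to 88.9 and 49.8 to 75.7, overlapped more on it than in plain CPM. Among 9 markers of pericytes and smooth muscle, 2 were called lower (*Pdgfrb* and *Kcnj8*) and 0 higher. The sum of the 9 was 1242 ± 65.3 CPM in rested and 1235 ± 76.9 CPM in exercised mice. Of 4 lymphatic markers *Lyve1* was called higher, but not on library totals (0.0634) or in females alone (0.644), and *Kcnj8* was not called in males alone (0.162). Of 29 markers of fibroblasts (5), immune cells (4), blood (5), adipocytes (5), slow fibers (5) and fast fibers (5), 0 were called for exercise by edgeR, with 2 at an unadjusted p under 0.05. DESeq2, which tested 30 with 5 of immune cells, called 1 (*Pdgfra*, a fibroblast marker). All 5 fibroblast markers had values below 0, with a median of -0.39, and *Pdgfra* was at -0.39 (edgeR adjusted p = 0.0549). Their sum was 1834 ± 948 CPM (850 to 4301) in rested and 1414 ± 384 CPM (891 to 2024) in exercised mice, and its part in the members' values was not tested.

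Some members varied together from mouse to mouse within the groups. With group means removed from log2 CPM, over the 25 libraries, Pearson's r was 0.74 between *Angpt2* and *Nos3*, 0.60 between *Apln* and *Aplnr*, 0.57 between *Aplnr* and *Tek*, and 0.51 between *Kdr* and *Aplnr*. The ligand genes *Vegfa* and *Vegfb* had an r of 0.51. The lowest values were those of *Angpt1* with *Nos3* (-0.67) and *Angpt2* (-0.60), of *Flt1* with *Apln* (-0.53) and of *Vegfb* with *Apln* (-0.52), while *Angpt1* was near 0 with *Kdr* (-0.06) and *Tek* (0.11). With the summed endothelial markers, r was 0.81 for *Nos3* and 0.78 for *Aplnr*, near 0 for *Vegfa* (0.03) and *Flt1* (0.00), and -0.57 for *Angpt1*. These correlations share libraries, scaling and tissue composition and are given as a description without a test. Only means of the genotype and exercise groups were removed, here and below, so differences by sex or by run of mouse numbers stay in.

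The genes whose levels ran most like those of *Aplnr* over the 25 libraries, among 12687 genes whose mean log2 CPM was 0 or higher, were *Myct1* (r = 0.97), *Ets1* (0.96), *Pcdh18* (0.95), *Fam84b* (0.95) and *Afdn* (0.95). Since *Aplnr* differs so much between rest and exercise, such genes are largely those that fell after exercise. Their log2 fold changes were -1.19 (*Myct1*), -0.57 (*Ets1*), -1.15 (*Pcdh18*), -1.65 (*Fam84b*) and -0.86 (*Afdn*), and all 5 were called. With the group means removed, high values were those of *Lrch3* (0.85), *Ets1* (0.84), *Pcdh12* (0.83) and *Gnb4* (0.82), so that *Ets1*, a transcription factor of endothelial and immune cells, was in both lists. For *Vegfa* the levels most alike were those of *Egln3* (r = 0.80), *Slc38a2* (0.77), *Josd1* (0.76), *Nr4a3* (0.76) and *Ndel1* (0.75). With group means removed they were those of *Egln3* (0.70), *Nr4a3* (0.69), *Irs2* (0.62), *Arfgef2* (0.62) and *Nfil3* (0.61). *Egln3* encodes a prolyl hydroxylase that acts on the hypoxia-inducible factors and is itself one of their targets.

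Around the members, 89 other genes of the same pathways were examined, of which 87 were tested. After exercise, 13 were called higher, 10 lower and 64 neither by edgeR, where 5.7% of all genes were called higher and 4.69% lower. The median log2 fold change was -0.02, against 0.00 over all genes. As the lists were drawn up with earlier results of these data known, nothing is read from these shares. DESeq2 called the same 23 and also *Ptprb* and *Vhl*. When either sex was fitted alone, 14 of the 23 were called in females and 19 in males. Of all genes, 3.03% were called in females alone and 6.01% in males alone. The 23 were picked by their calls in all mice, so nothing is read from these counts. Without mouse 15, 12 were called higher and 12 lower. For genotype and for the interaction 0 of the 87 were called by edgeR and 0 by DESeq2, with 8 and 7 at an unadjusted p under 0.05 in edgeR, against 1018 and 403 of all 16340 genes. Of the 23 called for exercise, the 5 with such a p for the interaction were *Apold1* (exercise log2 fold change 1.05 in WT, 2.59 in mD3AKO), *Ccn1* (0.31 and 1.68), *Ccn2* (1.10 and 2.14), *Klf2* (0.15 and 1.15) and *Dll4* (-1.05 and -0.50). On library totals alone *Pgf* (adjusted p = 0.0933), *Gucy1b1* (0.0589), *Hgf* (0.0594) and *Ccn1* (0.0691) were not called. The plot of the other pathway genes shows the spread within each list.

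Among 6 other VEGF ligands, receptors and coreceptors, *Pgf* (placental growth factor, a ligand of FLT1) rose by 0.50 (SE 0.137, edgeR adjusted p = 0.0173), and *Vegfc*, a ligand of the lymphatic receptor FLT4, changed by -0.56 (SE 0.104, adjusted p = 0.000495). *Pgf* was at 0.20 in females alone, where it was not called (adjusted p = 0.85), and at 0.71 in males alone. *Vegfc* was at -0.45 in females alone, where it was not called either (edgeR adjusted p = 0.0820), and at -0.71 in males alone. In the fit with 8 groups the responses of males minus females differed by 0.51 (SE 0.249) for *Pgf* and -0.26 (SE 0.208) for *Vegfc*. Neither difference was called (edgeR adjusted p = 0.9999 for each). *Flt4*, *Nrp1*, *Nrp2* and *Vegfd* were not called. Of 6 apelin partners and processing enzymes tested (among them *Mme* and the arrestins) and of 10 other angiopoietin and Tie genes (among them *Tie1*, *Ptprb* and *Svep1*), 0 were called by edgeR, where 5.7% of all genes were called higher and 4.69% lower, with 0 and 3 at an unadjusted p under 0.05. DESeq2 called 0 and 1. The closest in edgeR was *Ptprb*, a phosphatase that acts on TIE2, at 0.23 (SE 0.0743, adjusted p = 0.0504).

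Beside the rise of *Nos3*, 3 of 11 genes of nitric oxide signalling were called, all lower, where 4.69% of all genes were called lower. They were *Nos2*, the inducible synthase (-0.76, SE 0.134, edgeR adjusted p = 0.000285), and both subunits of the nitric oxide receptor guanylate cyclase, *Gucy1a1* (-0.58, SE 0.0709, adjusted p = 1.72e-06) and *Gucy1b1* (-0.33, SE 0.0690, adjusted p = 0.00148). *Gucy1a1* was at 18.1 ± 2.32 CPM in rested and 12.2 ± 1.40 CPM in exercised mice. *Nos1*, *Cav1*, *Prkg1* and *Pde5a* were not called.

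Of 15 genes of VEGF signal transduction and early targets, 3 rose and 1 fell, where 5.7% of all genes were called higher and 4.69% lower. *Apold1*, an immediate early gene of endothelial cells, went from 8.53 ± 7.75 to 29.1 ± 9.58 CPM (log2 fold change 1.82, SE 0.256). *Dusp5*, a phosphatase of ERK, rose by 1.13 (SE 0.262) but was not called when either sex was fitted alone (edgeR adjusted p = 0.0635 and 0.0693). In the fit with 8 groups it was called in males (1.21, edgeR adjusted p = 0.0249) but not in females (1.06, adjusted p = 0.137). *Rcan1*, an inhibitor of calcineurin, rose by 0.74 (SE 0.185). *Dll4*, a Notch ligand of tip cells and arteries, fell from 8.56 ± 2.18 to 5.07 ± 0.889 CPM (-0.77, SE 0.102). In the fit with 8 groups the rise of *Rcan1* was 0.05 in females and 1.29 in males. The difference of 1.23 (SE 0.241, unadjusted p = 4.2e-05 and adjusted p = 0.0727 in edgeR) was picked out after its values were seen.

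Of 10 hypoxia and PGC-1 regulators of *Vegfa*, *Ppargc1a*, the coactivator PGC-1 alpha, went from 37.7 ± 6.83 to 79.7 ± 19.6 CPM (1.10, SE 0.115), and *Egln3* from 63.3 ± 11.8 to 115 ± 20.3 CPM (0.85, SE 0.102). *Hif1a*, *Epas1*, *Arnt* and the other prolyl hydroxylases were not called by either tool. *Vhl*, which marks the hypoxia-inducible factors for breakdown, was at -0.21 and was called by DESeq2 (adjusted p = 0.0271) but not by edgeR (0.0524). Among 14 endothelial transcription factors, 4 were called higher and 3 lower by edgeR, where 5.7% and 4.69% of all genes were. The shear-responsive factors *Klf4* and *Klf2* rose by 1.40 (SE 0.162) and 0.65 (SE 0.182), *Foxo1*, a forkhead factor also present in muscle fibers, by 1.25 (SE 0.106), and the arterial factor *Sox17* by 0.77 (SE 0.0962). The rise of *Klf2* was 1.15 in mD3AKO mice and 0.15 in WT mice, where it was not called. By sex it was called in females (1.00) but not in males (0.55). The difference between genotypes (1.00, SE 0.361, edgeR adjusted p = 0.9998) was not called. Neither was that of males minus females (-0.46, SE 0.305, edgeR adjusted p = 0.9999). Rested mice were uneven in *Klf2*, at 14.2 ± 9.91 CPM (7.45 to 39.9). *Hhex*, *Ets2* and *Ets1* fell, with log2 fold changes of -1.15 (SE 0.164), -0.60 (SE 0.0631) and -0.57 (SE 0.0659). Levels of *Foxo1* and, narrowly, of *Klf4*, *Sox17* and *Ets1* did not overlap between rested and exercised mice. The highest rested and lowest exercised mice were at 17.8 and 24.7 CPM for *Foxo1*, 43.67 and 43.68 for *Klf4* and 10.4 and 10.7 for *Sox17*. For *Ets1* the lowest rested mouse was at 44.9 CPM and the highest exercised mouse at 44.7 CPM. The share of all genes without overlap is not given here, so nothing is read from this. *Erg*, *Fli1* and *Tal1*, further factors of endothelial and blood lineages, were not called.

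The 15 other angiogenic factors and inhibitors, beside the same shares of all genes, included 3 that rose, the matricellular genes *Ccn2* (1.62, SE 0.186) and *Ccn1* (0.99, SE 0.324) and the protease *Adamts1* (1.08, SE 0.194), and 2 that fell, *Hgf* (-0.69, SE 0.191) and *Pdgfa* (-0.25, SE 0.0459). Neither of these 2 was called when either sex was fitted alone. The fit with 8 groups called *Pdgfa* in males (-0.25, edgeR adjusted p = 0.0233) but not in females (-0.22, adjusted p = 0.0865). *Hgf* was called in neither sex there. In that fit *Ccn1* was at 0.16 (SE 0.286) in females and 1.64 (SE 0.270) in males. *Adamts1* was at 0.64 (SE 0.211) and 1.48 (SE 0.196). Each was called in males but not in females, while *Ccn2* was called in both, at 2.07 and 1.52. The differences between the sexes in *Ccn1* and *Adamts1* were 1.48 and 0.84, with edgeR adjusted p of 0.662 and 1.00. *Ccn1* was close to the threshold (edgeR adjusted p = 0.0487), was not called when all genes were kept (0.0527), and was not called in 17 of the 25 fits that left out 1 mouse, without mouse 1, 7, 8, 9, 10, 11, 12, 14, 15, 16, 17, 18, 19, 20, 21, 22 or 24, where its adjusted p was between 0.0583 and 0.102.

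**Figure D5:**
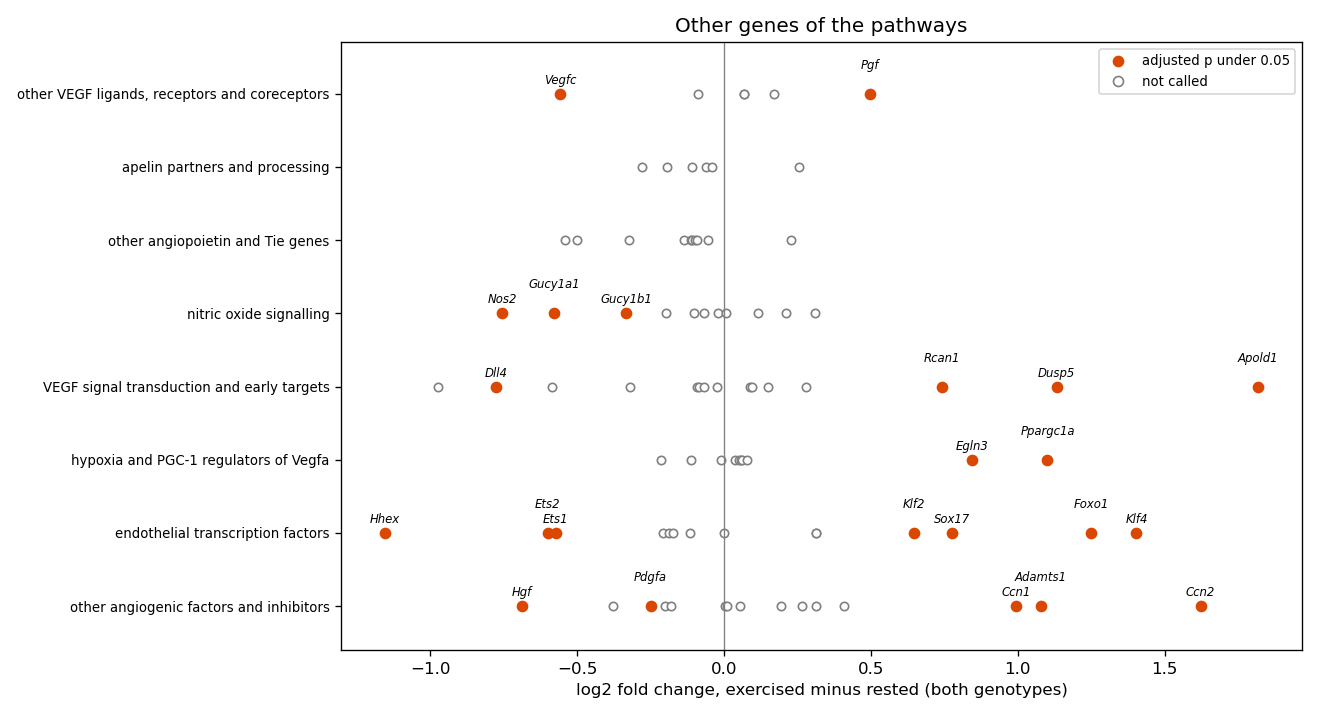
Fitted log2 fold change after exercise, over both genotypes, of 87 other genes of the VEGF, apelin, angiopoietin, nitric oxide and angiogenic lists, 1 row per list. Filled points (13 above 0 and 10 below 0) have an adjusted p under 0.05 and carry their symbols, from *Apold1* at 1.82 to *Hhex* at -1.15.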

How the data were processed

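Total RNA of 25 *soleus* muscles was depleted of ribosomal RNA and sequenced as strand-specific paired ends. The deposited values are counts of reads per gene, which the authors made on mm10 with the GENCODE M15 gene model and did not normalize. The submitters' processing notes list FastQC 0.11.5, STAR 2.5.3a and featureCounts 1.5.3. Columns were assigned to mice by the sample titles, and symbols were matched for 52403 of 52636 genes. The members and all lists were chosen with earlier results of these data known.

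Counts were tested with edgeR 4.0.16 (limma 3.58.1, R 4.3.3) by the quasi-likelihood F test with TMM, after filterByExpr (minimum count 10, minimum total 15), with 1 mean per genotype and exercise group and no term for sex. The study tested the same effects (genotype, exercise and their interaction), and whether its model of the RNA counts held sex is not given in the sources used here. P-values were adjusted by Benjamini-Hochberg over all genes tested. The tests were checked on simulated counts. FPKM are TMM-scaled CPM divided by exon length. DESeq2 1.42.0, other scaling, no filter, sex, runs of mouse numbers, each sex alone and leaving out each mouse were alternatives. The runs were mice 1 to 6 (females), 7 to 19 (males) and 20 to 25 (females), so a term for runs also holds sex. Named genes were all members, the called genes of each list (up to 8) and the 5 genes most like *Aplnr* and *Vegfa*, of which 1 is not reported here. Endothelial, pericyte and lymphatic markers called are named in addition, after their values were seen. Replicates were separate mice, and 0 of 67 pairs held identical values.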

Additional observations from a re-analysis of the deposited data

Results flagged for a closer look

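In 4 of the 40 groups of a member's values, the highest or lowest mouse lay far from the others of its group by Dixon's criterion, which chance exceeds in about 1 of 20 groups. *Vegfb* was at 52.3 CPM in mouse 3, the lowest of the exercised mD3AKO mice, and the same mouse had the highest *Angpt1* of that group, at 66.5 CPM, and its lowest *Angpt2*, at 1.84 CPM. *Kdr* was at 69.0 CPM in mouse 8, the lowest of the rested mD3AKO mice, which also had their lowest *Aplnr*, at 16.9 CPM. *Aplnr* was at 8.45 CPM in mouse 23, the highest of the exercised mD3AKO mice, where *Apln* and *Tek* were also the highest of the group, at 4.77 and 45.7 CPM.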

How the results depend on the processing

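Under DESeq2, other size factors, no filter, a term for sex and a term for runs of mouse numbers, 6 members were called for exercise, a description since they were chosen with that contrast known, and 0 for genotype and interaction. In females alone 2 members were called, and 8 pathway genes were called higher, from fewer mice, where 3.03% of all genes were called. In males alone, and on library totals, *Vegfa* and *Nos3* were not called for exercise. Leaving out 1 mouse gave 12 to 14 pathway genes called higher, 10 to 12 lower, and 0 to 1 members called for sex, with 0 without mouse 20 of the rested WT mice. The pathway and marker genes were put through these alternatives after the data were seen. Over all genes, 1699 were called for exercise, against 927 on library totals, 512 in females and 966 in males, and 44 for genotype, against 29 on totals, 72 with a term for sex, 97 with runs of mouse numbers, 81 in DESeq2, 6 in females and 23 in males. Only differences that were not called reversed. On library totals, genotype differences were -0.0130 (*Vegfa*), -0.0398 (*Vegfb*) and -0.0027 (*Angpt2*). In males, exercise differences were -0.0021 (*Vegfb*) and 0.0280 (*Angpt2*), and genotype differences -0.0205 (*Vegfa*), -0.0022 (*Vegfb*), -0.0209 (*Kdr*) and 0.0470 (*Nos3*). In females, exercise was -0.0027 (*Apln*), genotype -0.0055 (*Vegfb*), 0.0081 (*Tek*) and -0.20 (*Angpt2*), and the interaction 0.11 (*Vegfb*), -0.0286 (*Kdr*), 0.14 (*Aplnr*) and -0.0738 (*Nos3*). Leaving out 1 mouse moved exercise between -0.0007 and 0.0841 (*Vegfb*) and -0.0172 and 0.17 (*Apln*), genotype between -0.0015 and 0.0516 (*Vegfa*), -0.0383 and 0.0439 (*Vegfb*) and -0.0257 and 0.0825 (*Angpt2*), and the interaction between -0.0809 and 0.0152 (*Vegfa*), -0.11 and 0.0663 (*Vegfb*), -0.21 and 0.0001 (*Angpt2*) and -0.0089 and 0.14 (*Nos3*). The causes were not tested. Depth limits *Apln* and *Angpt2* most. No paired analysis was possible because every mouse number occurs once.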
